A study of Mus musculus with 9 samples.

Results

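H3K27ac islands were described at the 6 genes that carry the choice between the CD4 and the CD8 lineage, Cd4, Cd8a, Cd8b1, Zbtb7b, Runx3 and Gata3. The genes were listed by name, and all 6 of them were found in the mm9 annotation, out of 22380 protein-coding genes, 16518 of which had islands in each of the lists. For each gene the islands over the gene body and the 50 kb upstream of it were taken, and a merged region was counted whole when it reached into that window. H3K27ac, an acetylation of histone H3 at active promoters and enhancers, was measured by ChIP-seq in the mouse spleen, in naive T cells sorted as GFP+ TCRbeta+ CD62Lhi CD44lo-med CD8+ cells. WT cells came from hCD2-Cre+ Rosa26 GFP Tcf7+/+ Lef1+/+ mice and dKO cells from mice with the same transgene and reporter whose alleles were Tcf7 fl/fl and Lef1 fl/fl, so both genotypes carried the Cre transgene and the GFP reporter and only dKO cells lost the transcription factors Tcf1 and Lef1. The mice were 6 to 12 weeks old and of both sexes. The hCD2-Cre transgene is most active in mature T cells, which have already passed the lineage choice in the thymus, and GFP marked the cells in which Cre had acted. The 4 WT and the 3 dKO H3K27ac samples had been pooled by genotype before islands were called, so each value below is 1 number per genotype, no test between genotypes was possible, and the 95% intervals cover counting error only.

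As background, thymocytes that carry both coreceptors settle on one of them. Zbtb7b encodes ThPOK, the factor that commits cells to the CD4 lineage, and it acts downstream of Gata3, which encodes a zinc finger factor needed for CD4 T cells. Runx3 commits cells to the CD8 lineage and represses Cd4 and Zbtb7b through silencer elements, while enhancers upstream of Cd8a drive the 2 genes that encode the chains of the CD8 coreceptor, Cd8a and Cd8b1. In mature CD8+ T cells the Cd4 gene is kept silent. Tcf1 and Lef1 bind Tcf/Lef motifs and take part in this choice in the thymus.

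The sequences at which these factors could be read were taken from the NCBIM37 assembly, which is mm9, and were searched for the Runx motif TGTGGT, the Tcf/Lef motif ATCAAAG and the GATA motif AGATAA on both strands. Distances are in kb from the transcription start site (TSS) of the transcript with the longest coding sequence, negative upstream. Element stretches were placed from general knowledge at approximate distances and are not borders of the elements. The stretch that holds the Cd4 silencer, from 1 to 3 kb inside intron 1, had 6 Runx matches, and 1.09% of 22378 protein-coding genes had at least as many in the stretch at the same distance from their TSS, where the median was 1 match. It also had 2 Tcf/Lef matches, reached by 5.16% of genes. The Runx3 stretch from -1 to 1 kb of its distal promoter likewise had 2 Tcf/Lef matches, reached by 3.52% of genes. It had 4 Runx matches, reached by 5.25%. The Zbtb7b silencer stretch had 2 Runx matches, reached by 49.2% of genes, and the enhancer cluster upstream of Cd8a had 8, reached by 37.3%. That cluster had 0 Tcf/Lef matches, while 75.2% of genes had at least 1 in the same stretch. In the 250 bases upstream of the TSS, Runx3 had 2 Runx matches at its distal promoter and Cd8b1 had 1 Tcf/Lef match, while 12.7% and 2.91% of all 22380 such promoters held at least 1 match to these motifs. The GATA motif was found in 9.19% of them. None of the 3 motifs was found in those 250 bases of Cd4, Cd8a, Zbtb7b or Gata3. A match is a string of letters and not a site at which binding was measured. The sequences below carry these matches in capitals and run along the strand of their gene. The silencer window is the 300 bases of its stretch with most matches, so its match number was chosen. The promoters of Cd4 and Cd8a, with no match, are shown beside that of Cd8b1. The last window is the middle of a break in the dKO islands described under the Cd8 genes.
Cd4 silencer stretch, chr6:124836010-124836309, - strand: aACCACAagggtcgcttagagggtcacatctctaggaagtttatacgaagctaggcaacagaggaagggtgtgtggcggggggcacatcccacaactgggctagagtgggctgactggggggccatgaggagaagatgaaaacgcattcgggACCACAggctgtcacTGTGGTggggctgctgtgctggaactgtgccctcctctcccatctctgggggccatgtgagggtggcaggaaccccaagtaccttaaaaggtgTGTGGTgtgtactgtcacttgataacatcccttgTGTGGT
Runx3 distal promoter, chr4:134676317-134676566, + strand: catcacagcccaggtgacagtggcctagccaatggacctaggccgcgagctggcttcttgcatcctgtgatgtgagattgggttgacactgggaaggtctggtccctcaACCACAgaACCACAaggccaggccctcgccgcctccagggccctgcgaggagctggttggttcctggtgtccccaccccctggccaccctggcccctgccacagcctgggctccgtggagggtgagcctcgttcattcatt
Cd8b1 promoter, chr6:71272580-71272829, + strand: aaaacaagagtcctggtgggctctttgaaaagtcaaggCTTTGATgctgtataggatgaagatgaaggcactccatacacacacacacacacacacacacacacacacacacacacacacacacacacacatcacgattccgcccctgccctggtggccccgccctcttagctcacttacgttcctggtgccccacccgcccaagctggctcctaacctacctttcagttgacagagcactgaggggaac
Cd4 promoter, chr6:124838240-124838489, - strand: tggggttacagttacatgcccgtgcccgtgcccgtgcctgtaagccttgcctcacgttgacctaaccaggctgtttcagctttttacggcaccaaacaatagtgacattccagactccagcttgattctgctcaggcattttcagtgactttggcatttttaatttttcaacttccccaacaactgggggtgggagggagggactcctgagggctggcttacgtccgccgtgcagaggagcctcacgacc
Cd8a promoter, chr6:71323171-71323420, + strand: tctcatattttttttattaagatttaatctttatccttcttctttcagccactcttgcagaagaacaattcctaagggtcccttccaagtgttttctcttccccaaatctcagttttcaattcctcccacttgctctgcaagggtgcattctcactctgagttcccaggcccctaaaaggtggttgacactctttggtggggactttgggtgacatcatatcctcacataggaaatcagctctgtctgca
Cd8 island break, chr6:71300051-71300350, + strand: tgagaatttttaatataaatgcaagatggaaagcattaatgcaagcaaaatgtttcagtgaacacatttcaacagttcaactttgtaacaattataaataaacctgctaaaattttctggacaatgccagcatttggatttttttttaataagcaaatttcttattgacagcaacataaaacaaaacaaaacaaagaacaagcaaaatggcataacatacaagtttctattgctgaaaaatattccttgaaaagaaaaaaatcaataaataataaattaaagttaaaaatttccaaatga

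The Runx3 promoter sequence overlaps an exon of Gm16225, a transcript annotated beside Runx3. The other 5 sequences overlap no annotated exon. The GC content was 56.0% in the silencer window and 25.0% in the island break.

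Across the series, the WT list held 65563 islands with 82668007 counts and the dKO list 82213 islands with 57665047 counts, and all ratios below are dKO over WT after division by these totals. Lists of T cell markers were checked at promoters. All 5 T cell markers, Cd3d, Cd3e, Cd3g, Cd8a and Cd8b1, had a promoter island in both lists, at 274.2 to 460.8 counts per kb in WT and 286.0 to 301.1 in dKO. These markers are not independent. In WT, Cd3d and Cd3g shared an island of 30.2 kb and the Cd8 genes one of 65.0 kb. In dKO, Cd3d, Cd3e and Cd3g shared an island of 42.2 kb. The CD4 T cell markers Cd4, Zbtb7b, Cd40lg and Foxp3 also had promoter islands in both lists, 4 of 4, at 120.5 to 188.4 counts per kb in WT and 104.0 to 247.8 in dKO. Promoter islands were found at 3 of 4 B cell markers, at 3 of 3 myeloid markers and at 1 of 2 NK cell markers, with depths of up to 305.3 counts per kb in WT and 211.8 in dKO, both at Cd79a. Pax5 and Ncr1 had none in either list. The part of other cells in the results below was not tested. Fewer acetylated cells and less acetylation per cell cannot be told apart in pooled cells.

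Over the 6 windows there were 27 distinct regions, of which 18 had islands in both lists, 8 in dKO alone and 1 in WT alone. Regions of dKO alone made up 29.6% of the 27, beside 28.1% of the 76633 regions of the whole series, and WT alone 3.7% beside 12.8%. A ratio of 1.5 or more in either direction was called. By counts, 2 of the 18 regions were called higher in dKO and 0 higher in WT, while 11.1% of all regions in both lists were called higher in dKO and 14.6% higher in WT. By counts per covered kb, 0 were called higher in dKO and 2 higher in WT, beside 1.17% and 4.51% of all regions. The 2 regions higher in dKO by counts make up 11.1% of the 18, the same share as over all regions. At the level of whole windows no member was called by either measure, while 7.05% of protein-coding genes were called higher in dKO by counts and 9.27% higher in WT, and 0.327% and 8.17% by counts per covered kb. The median log2 count ratio was 0.21 over the 6 genes and -0.02 over all protein-coding genes. The median log2 ratio of counts per covered kb was -0.19 over the 6 genes and -0.16 over all genes.

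**Figure D1:**
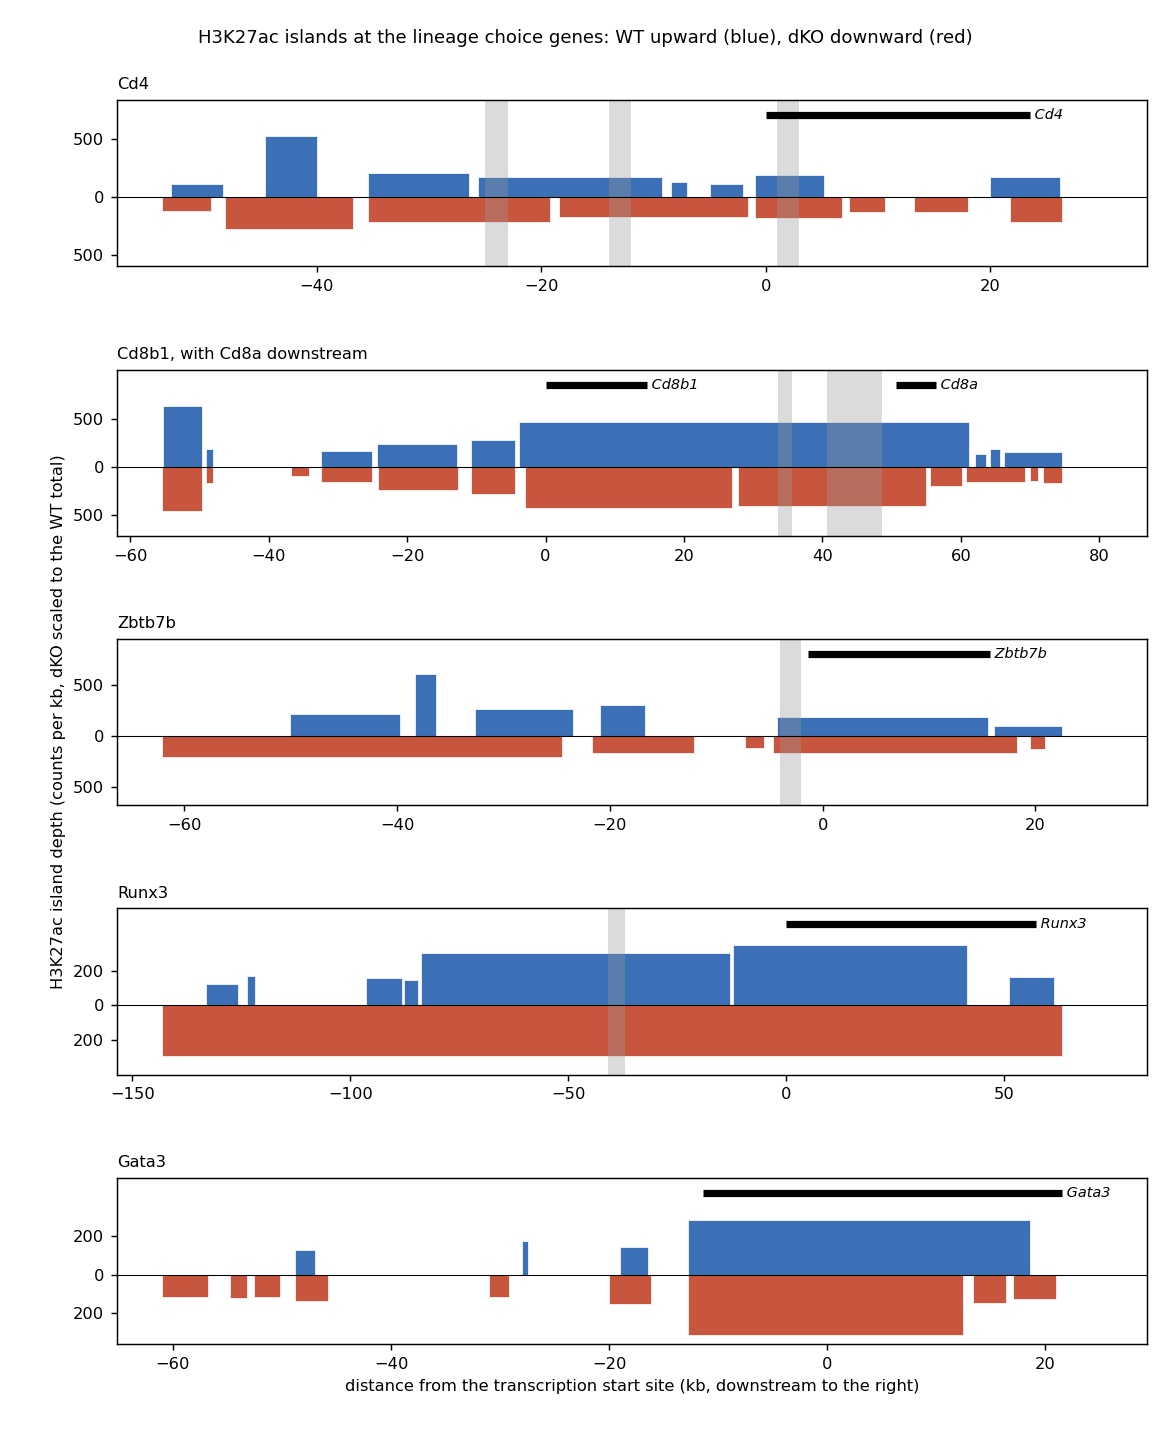
H3K27ac islands in the windows of the 6 genes, drawn to scale by distance from the TSS in kb (x axis) with depth in counts per kb, dKO scaled to the WT total (y axis). WT islands point upward in blue and dKO islands downward in red, black bars are genes and grey bands the silencer and enhancer stretches. The WT island over both Cd8 genes is 65.0 kb wide and is split in dKO, while 7 WT islands at Runx3 face 1 dKO island of 206.4 kb.

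The windows were ordered by depth. In WT, Cd8a had 414.7 counts per covered kb, Cd8b1 378.9, Runx3 284.8, Gata3 264.0, Zbtb7b 222.3 and Cd4 205.9. In dKO the order was Cd8a at 253.8, Cd8b1 at 230.1, Runx3 at 202.9, Gata3 at 155.8, Cd4 at 136.8 and Zbtb7b at 128.3. By window depth the genes of the CD8 lineage were above those of the CD4 lineage in both lists, and Cd4 and Zbtb7b changed places. At the main promoters this order did not hold in dKO, where the Gata3 island was at 217.9 counts per kb and the Runx3 island at 202.9. The spread over samples is not known, so neighbours in this order cannot be called different. The Cd8a window was deeper than that of 93.5% of protein-coding genes in WT and 96.4% in dKO, and the Cd4 window than that of 38.9% and 49.2%. The Cd8a and Cd8b1 windows share 1 region and are not independent.

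The Cd8 genes lie side by side on chromosome 6, Cd8b1 (ENSMUSG00000053044.7) from 71272830 to 71287471 and Cd8a (ENSMUSG00000053977.7) from 71323421 to 71329165, both on the plus strand. They encode the beta and alpha chains of the CD8 coreceptor. In WT a single island ran from -54.4 to 10.6 kb of the Cd8a TSS, over both genes and all Cd8a enhancer stretches, with 29951 counts in 65.0 kb. At 460.8 counts per kb it was deeper than 95.4% of WT islands, and it ranked 162 of 65563 by width. In dKO these bases held a series of islands. The 2 widest were the island over Cd8b1, with 9033 counts in 30.0 kb or 301.1 counts per kb, and the island over the enhancers and the start of Cd8a, with 7778 counts in 27.2 kb or 286.0 counts per kb. They were deeper than 97.6% and 97.3% of dKO islands, so that acetylation at both Cd8 genes stood near the top of each list. Among promoter islands alone the standing was lower. The WT island was deeper than 76.0% of them. In dKO the Cd8a promoter island was deeper than 82.7% and that of Cd8b1 than 85.0%.

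The break between these dKO islands ran from -23.6 to -22.8 kb of Cd8a, at positions 71299801 to 71300600 of chromosome 6, between the genes and outside any annotated exon. It was 0.8 kb wide, beside a gap of 400 bp that the island caller bridges. The GC content was 30.8% in the break and 45.8% in the WT island as a whole, and the part of base composition was not tested. A further break ran from 4.4 to 5.0 kb, over the end of Cd8a, and another from 9.6 to 10.2 kb. Behind Cd8a breaks were found in both lists. There, 3 breaks of the WT list between 10.6 and 15.6 kb lay inside an 8.4 kb dKO island. Further on, dKO breaks from 18.6 to 19.4 kb and from 20.6 to 21.2 kb lay inside a WT island of 8.4 kb.

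Over the whole shared region, from -54.4 to 24.0 kb of Cd8a, WT had 31680 counts in 76.4 kb and dKO 18833 counts in 74.2 kb. The log2 count ratio was -0.23 (95% interval -0.26 to -0.20) and the log2 ratio of counts per kb -0.19 (-0.21 to -0.16). This is the Cd8a value, since the window held no other region. Among protein-coding genes 28.1% had a lower count ratio and 44.7% a lower ratio per kb, so the lower dKO depth at Cd8a was close to the middle of all genes. At the Cd8a promoter, taken as 1 kb either side of the TSS, the island had 460.8 counts per kb in WT and 286.0 in dKO, a log2 ratio of -0.17. At the Cd8b1 promoter the dKO island had 301.1, a log2 ratio of -0.09. The median over 13098 promoters with islands in both lists was -0.20.

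The enhancer stretches upstream of Cd8a lie inside the same islands. The cluster of enhancers from -10 to -2 kb, which includes E8II and E8III that act in thymocytes, and E8I, the enhancer used by mature CD8+ T cells, from -17 to -15 kb were covered in full in both lists, each with the depth of the Cd8a promoter island. An island gives 1 count for all its bases, so the depth within it cannot be read and the promoter and the enhancers cannot be told apart.

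Cd8b1 had 6 further regions upstream. Those from -32.4 to -25 kb, -24.4 to -12.6 kb and -10.8 to -4.4 kb were nearly identical in the 2 lists, with log2 count ratios of -0.03, 0.07 and 0.07 and dKO islands of 7.4, 11.6 and 6.4 kb as in WT. Their intervals were -0.15 to 0.10, -0.01 to 0.15 and -0.04 to 0.17, and all held 0. A small region at -49.0 to -48.0 kb had 179 WT and 120 dKO counts, a log2 ratio of -0.06 (-0.39 to 0.28). The region over the promoter of Krcc1, a neighbouring gene, had the lowest ratio of this window, with 3545 WT and 1853 dKO counts and a log2 ratio of -0.42 (-0.50 to -0.34). The last region was of dKO alone, with 182 counts from -36.8 to -34.2 kb. For Cd8b1 as a whole the log2 count ratio was -0.19 (-0.21 to -0.17), from 41071 WT and 25078 dKO counts, and islands covered 108.4 kb in WT and 109.0 kb in dKO. With counts multiplied by the share of each island inside the window, the log2 count ratio was -0.05. Without regions over promoters of other genes, which leaves out the region that holds both Cd8 genes, it was 0.14, on the other side of 0.

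Runx3 (ENSMUSG00000070691.4, chromosome 4, 134676567 to 134733905, plus strand) encodes the Runt factor that commits cells to the CD8 lineage. Its window held 1 region. WT had 7 islands in it, the 2 main ones from -83.8 to -13.0 kb with 21115 counts at 298.2 per kb and from -12.2 to 41.4 kb with 18548 counts at 346.0 per kb. In dKO a single island reached from -143.2 to 63.2 kb with 41874 counts in 206.4 kb, or 202.9 counts per kb. It was the island of rank 4 by width among the 82213 of the dKO list.

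The 6 breaks between the WT islands were all closed in dKO. The widest ran from -121.8 to -96.4 kb, 25.4 kb far upstream and outside the 50 kb window, and the next from 41.4 to 51.0 kb inside the gene. The break between the 2 main WT islands was 0.8 kb wide. Inside the window both lists covered 97.2 kb, dKO alone 10.4 kb and WT alone 0 kb. The summed counts were 44319 in WT and 41874 in dKO, a log2 count ratio of 0.44 (0.42 to 0.46), the highest of the 6 genes. A lower ratio was found in 89.6% of protein-coding genes. Per covered kb the log2 ratio was 0.03 (0.01 to 0.05), so the higher count went with the 1.33 times wider cover. With the counts multiplied by the share of each island inside the window, the log2 count ratio was 0.03 and the ratio per kb -0.12. That share assumes an even spread of counts within an island, and it leaves out the bases far upstream.

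Runx3 is read from 2 promoters, a distal one that gives the isoform of mature CD8+ T cells and a proximal one. The distal promoter, with its 2 Runx matches shown above, and the proximal promoter at 31.8 kb lay in the same WT island at 346.0 counts per kb and in the same dKO island at 202.9, a log2 ratio of -0.25 at both. The stretch of an upstream enhancer from -41 to -37 kb lay in the other main WT island at 298.2 counts per kb, with a log2 ratio of -0.04. The dKO value is a mean over 206.4 kb and the WT value a mean over 53.6 kb, and the depth at the promoter itself cannot be read from either.

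Cd4 (ENSMUSG00000023274.7, chromosome 6, 124814710 to 124838239, minus strand) encodes the coreceptor that CD8+ T cells keep silent. Its promoter carried an island in both lists. In WT it ran from -1.0 to 5.2 kb with 1168 counts, or 188.4 counts per kb. In dKO it ran from -1.0 to 6.8 kb with 998 counts, or 127.9 per kb. The log2 count ratio was 0.29 (0.17 to 0.41) and the ratio per kb -0.04 (-0.16 to 0.08), an interval that held 0. Among promoter islands this one was shallow, deeper than 19.4% of them in WT and 21.4% in dKO. Among all islands it was deeper than 75.4% in WT and 78.4% in dKO. The intron 1 silencer stretch, with its 6 Runx matches, lay inside this island in full in both lists, so the silencer of the silent gene could not be told apart from its promoter.

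Further inside the gene the lists differed. At the second TSS, 8.53 kb downstream, WT had no island and dKO had one from 7.4 to 10.6 kb with 290 counts, or 90.6 per kb. A second island of dKO alone ran from 13.2 to 18.0 kb with 442 counts, or 92.1 per kb. The region beyond the end of the gene, at 20 to 26.4 kb and over the promoter of Gpr162, had 1085 WT and 684 dKO counts, the lowest count ratio of this window at -0.15 (-0.28 to -0.01). Inside the window, dKO alone covered 20.4 kb, WT alone 3.6 kb and both 42.4 kb, and the covered share was 62.2% in WT and 85.0% in dKO.

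Upstream of Cd4 the region from -35.4 to -1.6 kb had 4 WT islands with 5346 counts and 2 dKO islands with 4483 counts, a log2 count ratio of 0.27 (0.21 to 0.32) and a ratio per kb of 0.12 (0.06 to 0.18). It holds both Cd4 enhancer stretches and the promoters of Lag3, Ptms and A230083G16Rik. The proximal enhancer stretch, from -14 to -12 kb, was at 178.4 counts per kb in WT and 119.6 in dKO, a log2 ratio of -0.06. The distal stretch, from -25 to -23 kb, overlaps the promoter of Lag3, which encodes an inhibitory receptor, and was at 178.4 and 152.7 counts per kb, a log2 ratio of 0.30. Both WT values are the mean of 1 island from -25.6 to -9.2 kb. The dKO values are means of islands from -18.4 to -1.6 kb and from -35.4 to -19.2 kb. A change at either stretch itself cannot be read from them. The 2 enhancer stretches lay in 1 WT island, while dKO had a 0.8 kb break from -19.2 to -18.4 kb between them.

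The region at the promoter of Mlf2, a neighbouring gene, had 2447 WT counts in 4.6 kb and 2187 dKO counts in 11.4 kb. Its log2 count ratio was 0.36 (0.27 to 0.44), the highest of the window. Its ratio per kb was -0.95 (-1.04 to -0.87), 1 of the 2 regions called higher in WT by that measure. Over all 7 regions Cd4 had 10581 WT counts in 51.4 kb and 9463 dKO counts in 69.2 kb, a log2 count ratio of 0.36 (0.32 to 0.40) and a ratio per kb of -0.07 (-0.11 to -0.03). The ratio per kb was 0.04 with 10 kb upstream and -0.22 with 100 kb. Without the regions over promoters of other genes, the log2 count ratio was 0.83, past the ratio called. This value rests on few counts and includes both islands of dKO alone.

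Zbtb7b (ENSMUSG00000028042.8, chromosome 3, 89181566 to 89198698, minus strand) encodes ThPOK. All of its 9 annotated TSSs lay in 1 WT island, from -4.3 to 15.5 kb with 3706 counts at 187.2 per kb, and in 1 dKO island, from -4.7 to 18.3 kb with 2689 counts at 116.9 per kb. The log2 ratio of these depths was -0.16. Like that of Cd4, this island was shallow among promoter islands, deeper than 19.1% of them in WT and 16.2% in dKO. Among all islands it was deeper than 75.1% in WT and 71.9% in dKO. The silencer stretch, from -4 to -2 kb, lay inside it in both lists. With the islands behind the gene, the region from -4.7 to 22.5 kb had 4365 WT and 2814 dKO counts, a log2 count ratio of -0.11 (-0.18 to -0.05), the lowest of this window, and a ratio per kb of -0.01 (-0.08 to 0.06).

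The higher counts of dKO in this window lay over other genes. The region from -62.1 to -23.5 kb holds the promoters of Cks1b, Shc1, Pygo2 and Pbxip1, and 3 WT islands there faced 1 dKO island of 37.6 kb, with 5928 and 5343 counts and a log2 count ratio of 0.37 (0.32 to 0.42). The region at the promoter of Flad1 had 1266 WT counts in 4.2 kb and 1109 dKO counts in 9.6 kb, a log2 count ratio of 0.33 (0.21 to 0.44) and a ratio per kb of -0.86 (-0.98 to -0.75), the other region called higher in WT per kb. An island of dKO alone with 151 counts ran from -7.3 to -5.5 kb, just upstream of the silencer stretch. For the whole window the log2 count ratio was 0.22 (0.18 to 0.26), from 11559 WT and 9417 dKO counts. With a window of 10 kb upstream it was -0.04, on the other side of 0.

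Gata3 (ENSMUSG00000015619.9, chromosome 2, 9778705 to 9811661, minus strand) encodes a factor of early T cells and of the CD4 lineage. The gene lay under a single WT island from -12.8 to 18.6 kb with 8891 counts at 283.2 per kb. In dKO the main island began at the same base and ended at 12.4 kb, with 5491 counts at 217.9 per kb, and smaller islands with 304 and 355 counts followed it. Over the whole region the log2 count ratio was -0.01 (-0.06 to 0.03) from 8891 WT and 6150 dKO counts. Both Gata3 promoters, at 0 and -11.43 kb, lay in the main islands, with a log2 ratio per kb of 0.14. It was the only positive value among the 6 main promoters, and 83.5% of promoters had a lower one, but it sets a WT island of 31.4 kb against a dKO island of 25.2 kb. Over the whole region, with the smaller dKO islands, the log2 ratio per kb was -0.05 (-0.10 to -0.0015), of the other sign.

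Away from the gene the islands were small. The 2 regions called higher in dKO by counts were here, at -48.8 to -45.8 kb with 236 WT and 283 dKO counts and a log2 count ratio of 0.78 (0.53 to 1.03), and at -20 to -16.2 kb with 375 and 393 counts and a ratio of 0.59 (0.38 to 0.79). Both intervals reached below the ratio called, and per kb both ratios were 0.04. A further 4 islands were of dKO alone, with 136 to 337 counts between -61.0 and -29.2 kb, and the 1 island of WT alone had 107 counts in 0.6 kb from -28.0 to -27.4 kb. The whole window had 9609 WT counts in 36.4 kb and 7632 dKO counts in 49.0 kb, a log2 count ratio of 0.19 (0.14 to 0.23) and a ratio per kb of -0.24 (-0.28 to -0.20). With 10 kb upstream these were 0.02 and -0.06, and with islands within 2 kb joined the ratio per kb was -0.02. Without regions over promoters of other genes, which leaves out the region of the gene itself, the log2 count ratio was 1.57, past the ratio called. This value rests on few counts and includes the 4 islands of dKO alone, whose bases have no WT count.

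Tce1, a far downstream enhancer of Gata3 in T cells, was looked for from 270 to 290 kb beyond the end of the gene, outside the window. The stretch was covered in full by 1 WT island of 37.6 kb with 6435 counts, or 171.1 per kb. It was covered to 94.0% by 2 dKO islands with 3757 and 2845 counts, and the log2 ratio per kb was 0.08. The study lists Gata3 with a dKO-prepotent super enhancer (SE), a cluster of islands with a higher dKO signal, and with a WT-specific hub of chromatin contacts. Islands that lie wholly within the listed SE, from 31.0 kb upstream of the TSS to 561.0 kb downstream, had 64897 WT and 52956 dKO counts, a log2 count ratio of 0.23 (0.21 to 0.24) and a ratio per kb of 0.16 (0.14 to 0.17). Those in the listed hub, of 170.0 kb, had 16204 and 11683 counts, a log2 count ratio of 0.05 (0.01 to 0.08) and a ratio per kb of -0.02. The SE was selected on these samples, so its direction is no independent evidence. None of the other 5 genes was paired with a listed SE or hub. The lists hold only SEs and hubs linked to genes that the study counted as changed in expression. A gene outside that set could not appear, so its absence says nothing about an SE or hub at it.

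**Figure D2:**
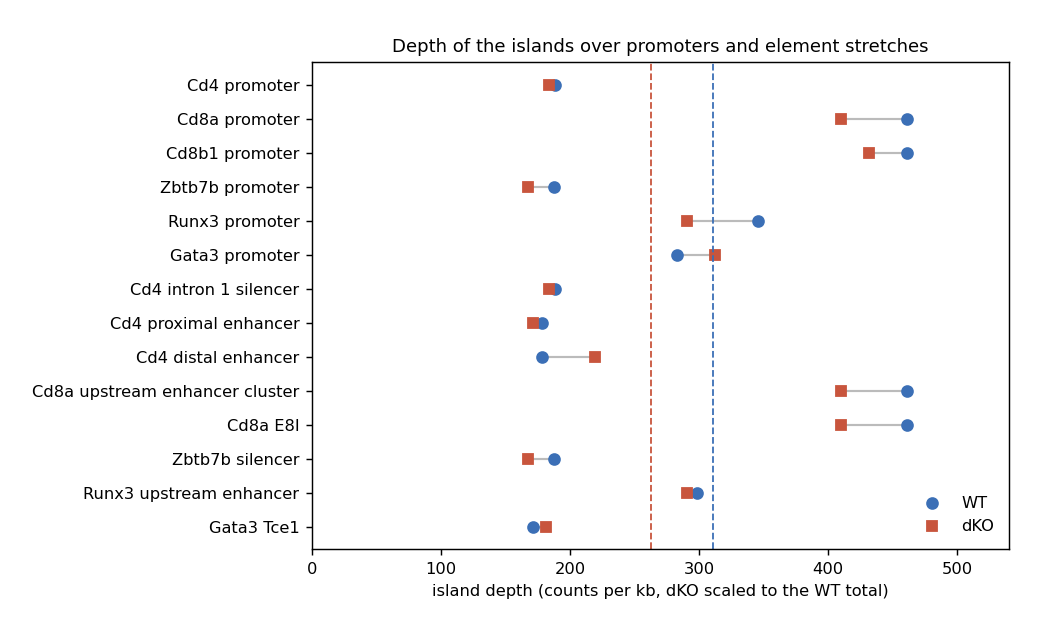
Depth of the island over each main promoter and over each silencer or enhancer stretch, in counts per kb with dKO scaled to the WT total (x axis), WT as blue circles and dKO as red squares, with dashed lines at the median of all promoters with an island. There are no replicates. Cd8a, Cd8b1 and their enhancers lie above both medians in both genotypes, and the Cd4 and Zbtb7b promoters and silencers below them.

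The islands of dKO alone were alike in depth across the 4 windows that held them. The 8 islands had 136 to 442 counts in 1.6 to 4.8 kb, or 70.0 to 92.1 counts per kb, while the median dKO island had 98.3. Scaled to the WT total they stood at 100.4 to 132.0 counts per kb. Only 1.41% of WT islands were shallower than the lowest of these values, and 38.4% shallower than the highest. The 5th percentile of island depth was 106.9 counts per kb in WT and 75.0 in dKO. These islands were thus among the shallower ones of both lists, and whether the WT bases below them held fewer reads or fell short of the calling threshold cannot be told apart.

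**Figure D3:**
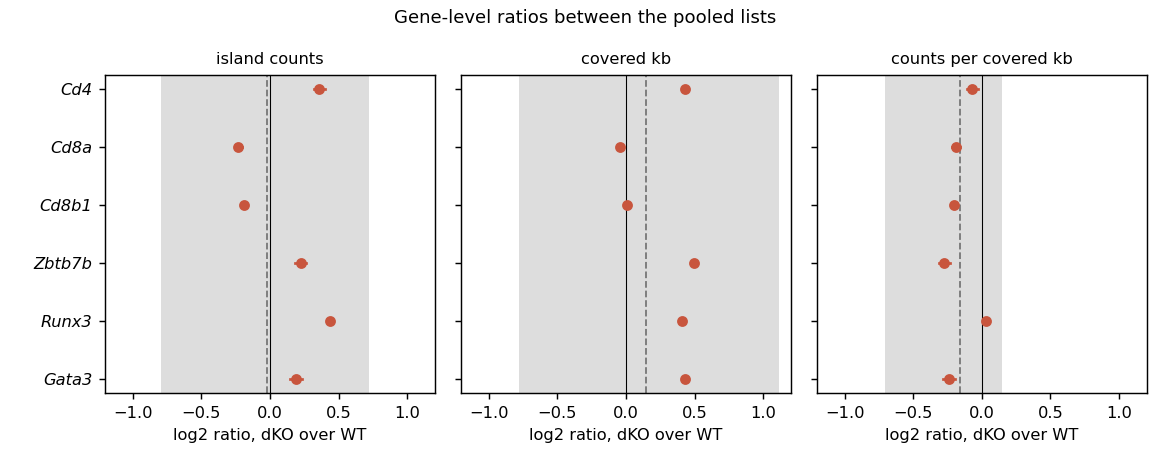
log2 ratios of dKO over WT for the window of each gene (x axis), by island counts, covered kb and counts per covered kb, with 95% counting intervals where drawn, which can be narrower than the point. Grey bands run from the 5th to the 95th percentile of protein-coding genes and dashed lines mark their median. All 6 genes lie inside the band in each panel, and Cd4, Zbtb7b, Runx3 and Gata3 lie to the right of the median in counts and in covered kb.

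Covered width differed between the members. The dKO islands covered 1.35 times the WT width at Cd4, 1.41 times at Zbtb7b, 1.33 times at Runx3 and 1.35 times at Gata3, but 0.97 times at Cd8a and 1.01 times at Cd8b1. Of protein-coding genes, 24.5% had a larger ratio of covered width than Cd4, so a widening of this size was common. The genes most like each member in depth and covered width of both lists were B3gnt3 for Cd4, Galnt6 for Cd8a, Dos for Cd8b1, Adam1a for Zbtb7b, Rasa3 for Runx3 and Dnlz for Gata3, at distances of 0.047, 0.11, 0.16, 0.066, 0.21 and 0.088 over 4 log2 measures from 2 lists. Rasa3, for example, had 164.8 kb covered in WT and 186.8 kb in dKO, at 263.1 and 209.4 counts per kb.

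Other genes of the lineage choice were taken from a list of 18 regulators and 6 lineage genes. All 24 had islands in both lists and none was called in either direction by counts or by counts per kb. Over all protein-coding genes 7.05% were called higher in dKO and 9.27% higher in WT by counts, and 0.327% and 8.17% per kb. Calls are thus uncommon among all genes, and their absence in so short a list does not set these genes apart. Among the regulators 7 had a positive and 11 a negative log2 count ratio, with a median of -0.07. The highest were Cbfb, the partner of all Runx factors, at 0.52 and Runx1 at 0.43, and the lowest were Il7r, the interleukin-7 receptor that supports CD8 specification, at -0.56 and Myb at -0.49. Cbfb was at -0.45 per kb, while Runx1 was at 0.14. Lef1 and Tcf7, the targeted genes, were at -0.30 and 0.15. Islands around a gene do not show whether its floxed exons were removed, so these values are no check of the deletion.

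The 6 lineage genes had a median log2 count ratio of 0.15, with 4 positive and 2 negative values. The highest were Tbx21, which encodes the effector factor T-bet, at 0.44 and Foxp3, the factor of regulatory T cells, at 0.42. The lowest were Cd40lg, which encodes a ligand made by CD4+ T cells, at -0.54 and Eomes at -0.32. Foxp3 and Cd40lg lie on chromosome X, and the sex of the mice in each pool is not given here. The part of sex in their ratios was not tested. Per kb, Foxp3 was at -0.43 and Cd40lg at -0.01, so the sign or size of both rested on covered width. The Foxp3 promoter lay in a WT island of 2.0 kb with 266 counts and in a dKO island of 28.0 kb with 6938 counts, at 133.0 and 247.8 counts per kb. After scaling to the totals, the log2 ratio of these depths was 1.42, past the ratio called and of the other sign than that of the window per kb. It sets a mean over 2.0 kb against a mean over 28.0 kb. The depth at the Foxp3 promoter itself cannot be read from either.

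**Figure D4:**
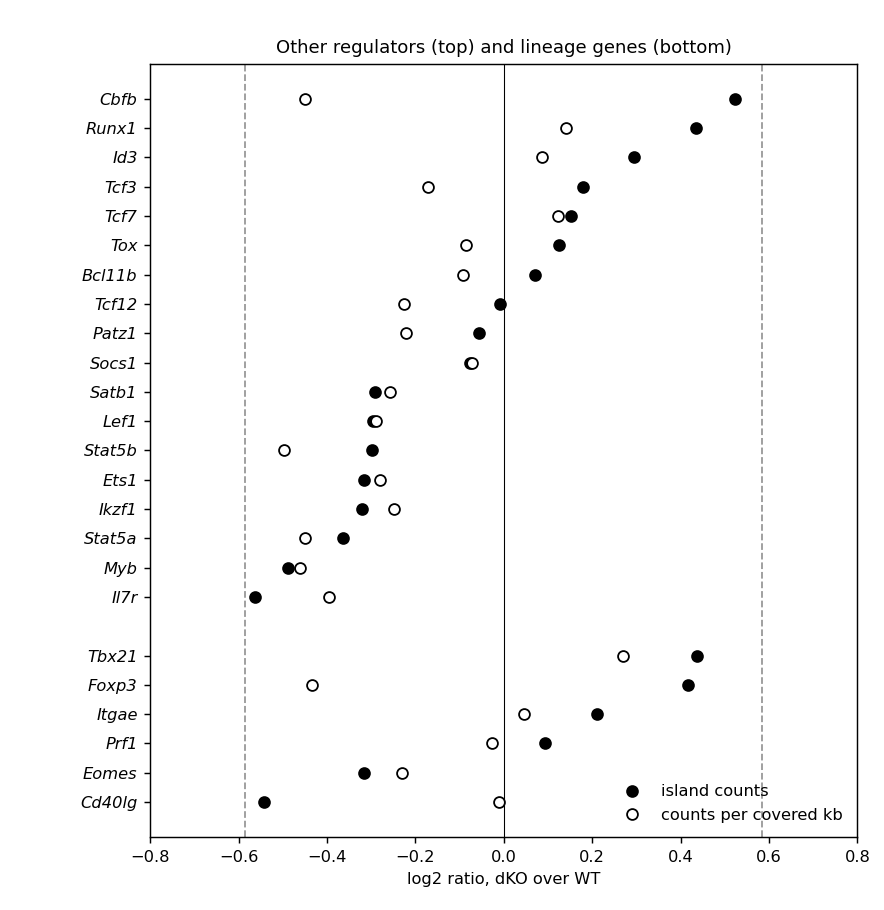
log2 ratios of dKO over WT (x axis) for 18 other regulators and 6 lineage genes, by island counts (filled) and by counts per covered kb (open), with dashed lines at a ratio of 1.5 either way. Each point is 1 value per pooled list with no replicate. All 24 genes lie between the dashed lines under both measures. Of all protein-coding genes, 7.05% lie past the upper line and 9.27% past the lower by counts, and 0.327% and 8.17% per kb.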

How the data were processed

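H3K27ac ChIP-seq was done on 4 WT and 3 dKO samples of naive CD8+ T cells, with 1 input sample per genotype that carried no values here. The authors aligned reads to mm9 with Bowtie2 2.2.5, kept uniquely mapped reads, pooled replicates by genotype and called islands with SICER 1.1 at a window of 200 bp, a gap of 400 bp and an FDR of 0.01. The deposited values are read counts per island, not scaled for depth or width, and a base without an island has no count. The treatment of duplicate reads is not given in the sources used here. Totals of island counts, 82668007 in WT and 57665047 in dKO, are not totals of sequenced reads. Scaling to them takes out any overall difference in enrichment too.

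Starts were taken as counted from 0 and are given counted from 1. Islands sharing at least 1 bp were merged into regions with Python 3 and numpy, and regions were assigned to genes of the GENCODE vM1 annotation of NCBIM37 by the window of gene body and 50 kb upstream. Ratios carry 95% Wilson intervals of the dKO share of counts, which cover counting error only. No p-value was computed, because each genotype has 1 pooled list. Promoters were taken as 1 kb either side of a TSS. The members and lists were chosen with earlier results of these data known. Named regions were those over promoters and elements, the highest and lowest count ratio of a window and islands of 1 list alone. Of the other regulators and lineage genes, the 2 highest, the 2 lowest and the targeted genes were named, and Foxp3 was followed to its promoter after its values were seen. The most alike gene had the smallest Euclidean distance in log2 scaled counts per kb and log2 covered kb of both lists, among genes sharing no region with the member. Merging and intervals were checked on simulated data. The study's supplementary lists gave positions of an SE and a hub only.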

Additional observations from a re-analysis of the deposited data

How the results depend on the processing

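No paired analysis was possible because the deposited lists hold 1 pooled value per genotype, so replicate numbers of the labels have no values of their own. For the same reason no replicate could be left out. The values below are log2 ratios of dKO over WT, and 57 of 102 alternative values, counts of calls included, moved past the counting interval or by more than 1.5 times. The cause was not tested. Scaling to regions with islands in both lists added 0.07 to each ratio. It gave count ratios of 0.43 for Cd4, -0.16 for Cd8a, -0.12 for Cd8b1, 0.29 for Zbtb7b, 0.51 for Runx3 and 0.26 for Gata3. Per covered kb it gave 0.0002, -0.12, -0.13, -0.20, 0.10 and -0.17 in the same order. Counts multiplied by the share of an island inside the window gave count ratios of -0.18 for Cd8a, -0.050 for Cd8b1, -0.025 for Zbtb7b and 0.028 for Runx3, and ratios per kb of -0.14, -0.11, -0.39 and -0.12. A window of 10 kb upstream gave -0.038 for Zbtb7b and 0.018 for Gata3 by counts, and 0.040 for Cd4, -0.17 for Cd8b1, -0.038 for Zbtb7b and -0.065 for Gata3 per kb. A window of 100 kb upstream gave 0.41 for Cd4, -0.17 for Cd8a, -0.16 for Cd8b1 and 0.092 for Gata3 by counts, and -0.22 for Cd4, -0.23 for Zbtb7b and -0.10 for Gata3 per kb. Islands of at least 200 counts gave 0.18 for Zbtb7b and 0.11 for Gata3 by counts, and -0.17 for Cd8b1 and -0.16 for Gata3 per kb. Joining islands within 2 kb gave -0.17 for Cd8a, -0.17 for Cd8b1, 0.28 for Zbtb7b, 0.32 for Runx3 and 0.26 for Gata3 by counts, and -0.23 for Cd8a, -0.012 for Runx3 and -0.022 for Gata3 per kb. Without regions over promoters of other genes, counts gave 0.83 for Cd4, 0.14 for Cd8b1, -0.038 for Zbtb7b and 1.57 for Gata3, and counts per kb gave -0.045 for Cd8b1, -0.038 for Zbtb7b and -0.18 for Gata3. This drops the only Cd8a region, which leaves no value, and the Gata3 gene region. Only these Cd4 and Gata3 values passed the ratio of 1.5 among the gene ratios, and both rest on few counts and include islands of dKO alone.

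Of the 18 regions of both lists, 2 were called higher in dKO and 0 higher in WT. Over all regions in both lists these calls made up 11.1% and 14.6%. Counts per covered kb gave 0 and 2, beside 1.17% and 4.51% of all regions. A minimum log2 ratio of 0.32 gave 6 and 1, and a ratio of at least 2 gave 0 higher in dKO. No share over all regions was taken at these looser and stricter ratios, so whether 6 and 1 differ from the rest of the series cannot be told. Promoter islands at 16 of 17 TSSs in WT and 17 in dKO and the absence of calls among other regulators were the same under each alternative run for them. Of these TSSs, 9 are of Zbtb7b and lie in 1 island per list. Among main promoters of all protein-coding genes, 61.0% held an island in WT and 61.3% in dKO. At the depth of a region with 236 and 283 counts, the interval spans 0.53 to 1.03.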
